A study of Mus musculus with 15 samples.

Results

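The class I antigen presentation genes of the mouse heart were followed in 9 members: the heavy chain genes H2-K1, H2-D1 and H2-T23, the light chain gene B2m, the peptide transporter genes Tap1 and Tap2, the tapasin gene Tapbp, and the immunoproteasome subunit genes Psmb8 and Psmb9. A member was represented by every array probe set annotated with its symbol alone, and 25 of the 45096 probe sets qualified. These 25 belonged to 8 genes, because H2-T23 had none of its own. A further 5 sets list a member together with other genes, were assigned to no gene and are described separately. Of the 25 sets, 20 passed a filter on dim signals and were tested, and 13 carry the ending _x_at, which marks a set that can match several related transcripts.

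Apex tissue was taken from male mice of 9 to 10 weeks, in 3 groups of 5 with 1 array per mouse: the inbred strains C57Bl/6 (C57BL/6J) and C3H (C3H/HeJ) and their first-generation cross B6C3F1 (B6C3F1/J). All groups shared the same handling: a radiotelemetry transmitter placed in the abdomen at 7 weeks of age under tribromoethanol, the NTP 2000 diet and no other treatment. RNA of the heart apex (50 ng) went through a two-cycle labelling, and each value is a MAS5 signal, printed here as log2(signal + 16). The labels' sample numbers run in one block per strain. What the numbers stand for is not stated, and strain cannot be told apart from anything that follows them.

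A class I molecule is a heavy chain bound to beta-2 microglobulin that holds a short peptide at the cell surface, where CD8 T cells inspect it. The peptides are cut by the proteasome, in which Psmb8 and Psmb9 replace constitutive subunits after exposure to interferon, and are pumped into the endoplasmic reticulum by the Tap1-Tap2 transporter, beside which tapasin holds empty class I molecules until they are loaded. Nearly all nucleated cells carry class I molecules. In the heart they are known for their rise during viral myocarditis and graft rejection. The heavy chain genes are among the most variable in the genome: C57BL/6 mice carry the H2 haplotype named b and C3H mice the haplotype named k, while the reference genome is that of C57BL/6J.

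In the reference gene table (GRCm38.p6) 8 members lie on chromosome 17, in the order Tapbp, H2-K1, Psmb9, Tap1, Psmb8, Tap2, H2-D1 and H2-T23, and B2m lies on chromosome 2. The start regions of the heavy chain genes and of B2m are shown because the signals of the heavy chains differed several-fold between strains, while the sets of their partner B2m gave log2 differences of 0.00 and -0.84. Each sequence is from RefSeq on GRCm38.p6 and holds the 250 bases before the annotated start of the gene, read 5′ to 3′ on the strand of the gene. Capitals mark matches to the interferon response core AANNGAAA (or its reverse complement TTTCNNTT) and to the kappa B pattern GGGATTCCC (or GGGAATCCC). These are chr17:34000348-34000597 (minus strand) for H2-K1, chr17:35262844-35263093 (plus strand) for H2-D1 and chr2:122147437-122147686 (plus strand) for B2m.
H2-K1: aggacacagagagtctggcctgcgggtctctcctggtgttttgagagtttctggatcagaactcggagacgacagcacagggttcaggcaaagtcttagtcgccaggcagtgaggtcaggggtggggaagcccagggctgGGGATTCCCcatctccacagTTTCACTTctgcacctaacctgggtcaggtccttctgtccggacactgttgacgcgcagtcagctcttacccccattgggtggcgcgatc
H2-D1: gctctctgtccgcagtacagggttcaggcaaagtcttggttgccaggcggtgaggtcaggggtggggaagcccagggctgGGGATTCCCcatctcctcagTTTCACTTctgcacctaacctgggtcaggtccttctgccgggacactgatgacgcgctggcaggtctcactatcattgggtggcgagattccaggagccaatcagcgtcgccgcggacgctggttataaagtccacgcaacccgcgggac
B2m: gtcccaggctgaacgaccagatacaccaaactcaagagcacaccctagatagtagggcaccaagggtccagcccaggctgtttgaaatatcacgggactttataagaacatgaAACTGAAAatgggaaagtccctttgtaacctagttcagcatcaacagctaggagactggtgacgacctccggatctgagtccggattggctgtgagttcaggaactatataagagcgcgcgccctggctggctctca
In windows of 300 bases that run 50 bases past the start, the H2-K1 and H2-D1 sequences aligned over 228 columns with 206 identical bases (90.4%). Both held the kappa B pattern, which occurred in 116 of 32851 such windows (0.353%), among them those of the class I genes H2-Q6 and H2-Q7. The pattern was chosen as a known class I site, so finding it in class I genes was foreseen. Matches in windows this alike are not separate results. The interferon response core was found in the windows of H2-K1, H2-D1, H2-T23 and B2m and in 23.9% of all windows. No match of it was found in the windows of Tapbp, Psmb9, Tap1 or Psmb8. The CCAAT box (CCAAT or ATTGG), present in 37.4% of windows, was in those of all these genes but Psmb8, whose window held a GAS motif (TTCNNNGAA, in 8.3% of windows). Psmb9 and Tap1 are read in opposite directions from one region, and their windows shared 275 of 300 bases. These matches describe the C57BL/6J reference letters only.

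The first comparison asked how C3H hearts differed from C57Bl/6 hearts. Of the 20 member sets tested, 13 passed in limma's fit over 27019 probe sets (Benjamini-Hochberg adjusted p under 0.05): 3 were higher and 10 lower in C3H. Of the 3 higher sets, 2 had a C57Bl/6 mean under the filter level and were tested through the groups where they are brighter. Over all sets 12.7% passed, 5.70% higher and 7.01% lower. The median difference of the 20 member sets was -0.42 on the log2 scale, against -0.03 over all sets tested. The heavy chain genes held most of the calls, with 3 of their 11 tested sets higher, 7 lower and 1 not passing. Of the 9 tested sets of B2m and of the supply and loading genes, 3 were lower, 0 were higher (also 0 at an unadjusted p under 0.05) and 6 did not pass. In 9 member sets, all of them heavy chain sets, no C3H array overlapped a C57Bl/6 array; 9.56% of all sets were separated in this way. In whole apex RNA a smaller number of cells of one type and less RNA per cell cannot be told apart.

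H2-K1, a classical heavy chain gene, had 4 tested sets, of which 3 were lower in C3H. Set 1425336_x_at read 12.81, 12.66, 13.12, 13.07 and 13.23 on the C57Bl/6 arrays, 11.26, 11.14, 11.44, 11.50 and 11.68 on the B6C3F1 arrays, and 7.95, 7.50, 7.42, 7.30 and 9.15 on the C3H arrays. The strains formed separate steps with no overlap, and C3H replicate 5 stood highest of its group. The C3H minus C57Bl/6 difference was -5.11 ± 0.24 (SE, n = 5 and 5, adjusted p = 3.56e-12), a 34.6-fold lower signal. Set 1451931_x_at gave 10.97, 10.81, 11.22, 11.35 and 11.03 in C57Bl/6, 10.07, 9.49, 10.43, 10.04 and 10.19 in B6C3F1, and 7.53, 6.91, 7.03, 7.55 and 7.49 in C3H. Again the groups did not overlap, and the difference was -3.77 ± 0.17 (adjusted p = 1.36e-12). Set 1427746_x_at read 9.10, 8.77, 9.42, 9.46 and 9.59 in C57Bl/6, 8.72, 8.41, 9.11, 8.83 and 8.93 in B6C3F1, and 8.24, 7.93, 7.81, 8.11 and 8.67 in C3H. Here the parents were apart by -1.12 ± 0.18 (adjusted p = 0.000189), and the cross overlapped both. The remaining set, 1450534_x_at, ranged from 6.29 to 7.29 in C57Bl/6, from 5.94 to 7.10 in B6C3F1 and from 6.16 to 6.96 in C3H, and its difference of -0.26 ± 0.28 did not pass (adjusted p = 0.618).

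H2-D1, the other classical heavy chain gene with sets of its own, had 7 tested sets that all passed, 4 lower and 3 higher in C3H. Among the lower ones, set 1451784_x_at read 12.39, 12.34, 12.67, 12.54 and 12.94 in C57Bl/6, 10.82, 10.59, 10.77, 10.92 and 11.57 in B6C3F1, and 7.67, 6.37, 6.61, 7.42 and 6.56 in C3H. No value of one strain reached the next. The difference between the parents was -5.65 ± 0.22 (adjusted p = 1.7e-13), a 50.2-fold lower signal in C3H. Set 1425545_x_at gave 12.02, 11.87, 12.27, 12.12 and 12.43 in C57Bl/6, 10.79, 10.48, 10.89, 11.04 and 11.25 in B6C3F1, and 8.37, 7.96, 7.95, 7.46 and 6.61 in C3H. Its groups were likewise separate, with a difference of -4.47 ± 0.23 (adjusted p = 1.04e-11). On this set C3H replicate 5 was the lowest C3H array, whereas it was the highest on the H2-K1 set 1425336_x_at. Set 1451683_x_at read 8.05 to 8.83 in C57Bl/6 and 5.29 to 6.57 in C3H, a difference of -2.53 ± 0.26 (adjusted p = 6.04e-07). Set 1426324_at, the only tested set of H2-D1 without the _x_at ending, read 7.92 to 8.49 in C57Bl/6 and 5.68 to 6.69 in C3H, a difference of -2.07 ± 0.23 (adjusted p = 1.18e-06). The C3H means of the last 2 sets, 5.93 ± 0.45 (SD, n = 5) and 6.18 ± 0.36, lay close to the filter level of 5.74.

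The other 3 sets of H2-D1 were higher in C3H. Set 1450170_x_at read 7.03, 6.61, 5.97, 6.20 and 6.88 in C57Bl/6, 10.51, 10.16, 10.39, 10.64 and 10.43 in B6C3F1, and 11.31, 11.18, 11.12, 11.21 and 11.89 in C3H. The order of the strains was thus the reverse of that on the 4 lower sets, again with no overlap, and the difference was 4.80 ± 0.18 (adjusted p = 1.25e-13), a 27.9-fold higher signal in C3H. Set 1452544_x_at gave 4.57, 5.12, 6.20, 4.85 and 5.62 in C57Bl/6, 6.70, 7.10, 6.55, 7.57 and 6.79 in B6C3F1, and 7.66, 7.46, 7.63, 7.21 and 8.15 in C3H, a difference of 2.35 ± 0.30 (adjusted p = 1.08e-05). Set 1427651_x_at read 5.92, 5.19, 4.98, 5.32 and 6.22 in C57Bl/6, 7.42, 7.30, 7.20, 5.96 and 7.0 in B6C3F1, and 7.43, 7.14, 7.70, 5.50 and 7.27 in C3H. C3H replicate 4 lay inside the C57Bl/6 range, and the difference of 1.49 ± 0.38 (adjusted p = 0.0124) was lost once the log2 ratio of the 3 prime to the 5 prime Gapdh signal was added to the model (adjusted p = 0.0661). The C57Bl/6 means of these last 2 sets, 5.27 and 5.53, were under the filter level, so they entered the test through the other groups. A further 2 sets of H2-D1 were too dim to test: 1425614_x_at had means of 5.49, 5.47 and 6.17 in C57Bl/6, B6C3F1 and C3H, and 1451934_at of 4.67, 4.25 and 4.90.

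**Figure D1:**
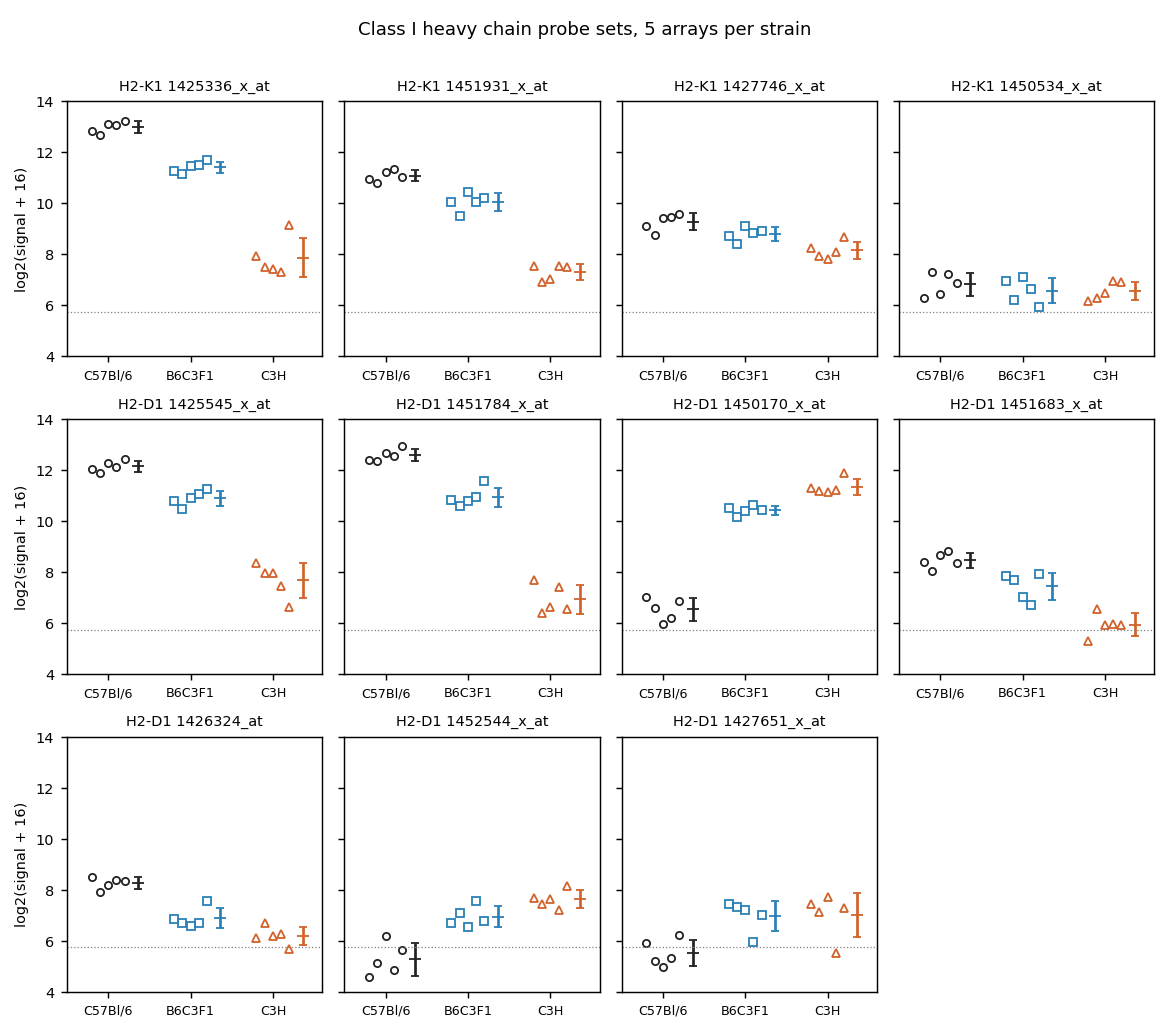
Signals of the 11 tested heavy chain probe sets, 1 panel per set. The vertical axis is log2(signal + 16), the points are single arrays (circles C57Bl/6, squares B6C3F1, triangles C3H; 5 each), the bars are means ± SD and the dotted line is the filter level of 5.74. H2-K1 sets 1425336_x_at and 1451931_x_at step down from C57Bl/6 to C3H, while H2-D1 set 1450170_x_at steps up from a mean of 6.54 to 11.34.

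Probe sets of H2-K1, and those of H2-D1, therefore did not give one strain difference per gene. Each pair of tested sets of one member gene was compared by the difference between the sets on each array, C3H against C57Bl/6, with an exact two-sided permutation test whose smallest possible p is 0.00794. Of the 30 pairs, 26 passed after Benjamini-Hochberg adjustment over the pairs, and 25 were at that smallest p. By gene these were 5 of 6 pairs of H2-K1, 19 of 21 of H2-D1, and the only pairs of B2m and Psmb8. The Tapbp pair did not pass (exact permutation test, adjusted p = 0.206). Pairs of other genes were not tested, so no share over all genes stands beside these counts. The scale used here understates the change of low signals, so sets of unequal brightness can differ for the same change in transcript. H2-K1 sets 1425336_x_at and 1451931_x_at had means of 12.98 and 11.07 in C57Bl/6 but 7.86 and 7.30 in C3H. The passing Psmb8 pair includes set 1444619_x_at, with a C57Bl/6 mean of 5.35, under the filter level. The part of brightness in the passing pairs was not tested. In 12 pairs, all of H2-D1, both sets passed between the parents and in opposite directions. These pair every lower with every higher H2-D1 set, so they share sets, and the pair test adds nothing to those calls. Of these 12, 8 include set 1452544_x_at or 1427651_x_at, whose C57Bl/6 means lay under the filter level, and the other 4, all with set 1450170_x_at, had both parental means above it. The widest such gap was between H2-D1 sets 1451784_x_at and 1450170_x_at, at -10.45 (adjusted p = 0.00952, exact permutation test). Within H2-K1, 5 of 6 pairs passed and 0 had opposite signs. The files used here hold no probe sequences. Probe match to either haplotype, probe match to related transcripts and the amount of transcript therefore cannot be told apart for H2-K1 and H2-D1. Neither gene is given a single strain difference.

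Of the 5 sets that list a member with other genes, 1424948_x_at lists H2-K1 and H2-D1. It read 8.92 to 9.33 in C57Bl/6, 8.42 to 9.09 in B6C3F1 and 7.60 to 8.57 in C3H, a difference of -1.10 ± 0.18 between the parents (adjusted p = 0.000191). Set 1449556_at lists H2-T23, whose product Qa-1 is a nonclassical class I molecule seen by natural killer cells, together with the pseudogene H2-T-ps. It read 10.42, 10.29, 10.69, 10.44 and 10.60 in C57Bl/6, 10.11, 10.00, 10.22, 10.00 and 9.97 in B6C3F1, and 10.19, 10.07, 10.44, 10.31 and 10.18 in C3H. The parents overlapped and did not pass (-0.25 ± 0.10, adjusted p = 0.119), whereas the cross lay below every C57Bl/6 array (-0.43 ± 0.10, adjusted p = 0.0248). The other set with these symbols, 1419658_at, had means of 5.75, 5.82 and 6.21 in C57Bl/6, B6C3F1 and C3H and did not pass (adjusted p = 0.529 between the parents). Sets 1451593_at (H2-Q5 and H2-K1) and 1422348_at (Gm38417, H2-Q2 and H2-D1) were too dim to test.

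B2m, the light chain gene, showed no step like those of the heavy chains. Set 1449289_a_at read 12.40, 13.28, 13.30, 12.93 and 13.69 in C57Bl/6, 13.19, 13.44, 13.31, 13.48 and 13.37 in B6C3F1, and 12.57, 13.02, 12.93, 12.72 and 14.37 in C3H. The groups overlapped, with C3H replicate 5 far above the other C3H arrays. The difference between the parents was 0.00 ± 0.26 (adjusted p = 1.00), and -0.31 without C3H replicate 5 (adjusted p = 0.292). Set 1452428_a_at gave 11.85, 12.29, 12.65, 12.41 and 12.72 in C57Bl/6, 11.97, 12.27, 12.31, 12.31 and 12.31 in B6C3F1, and 10.73, 11.35, 11.72, 11.55 and 12.37 in C3H. Only C3H replicate 5 reached beyond the lowest C57Bl/6 array, and the difference was -0.84 ± 0.21 (adjusted p = 0.00941). It was -1.05 without C3H replicate 5 (adjusted p = 0.00035) and was lost once the signal of the poly-A controls was added to the model (-0.72, adjusted p = 0.0672). The sets differed from each other in their strain difference by 0.84 (exact permutation test, adjusted p = 0.00952). Without probe sequences, the match of a probe to either strain and the amount of transcript cannot be told apart for B2m either.

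Of the transporter genes, Tap1 read 7.38, 7.13, 7.58, 7.77 and 7.80 in C57Bl/6, 7.26, 7.54, 8.06, 7.60 and 6.85 in B6C3F1, and 6.88, 6.97, 7.30, 6.93 and 7.47 in C3H on its only tested set, 1416016_at. The ranges overlapped, and the difference of -0.42 ± 0.22 did not pass (adjusted p = 0.242). Its 3 other sets, 1420274_at, 1449803_x_at and 1448177_at, had group means of 4.24 to 5.05 and were too dim to test. Tap2, the partner of Tap1 in the transporter, had means of 9.24 ± 0.22 in C57Bl/6, 9.23 ± 0.37 in B6C3F1 and 9.29 ± 0.39 in C3H (SD, n = 5 each) on set 1453913_a_at. Its difference between the parents was 0.05 ± 0.19 (adjusted p = 0.900).

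Tapbp, which encodes the loading factor tapasin, read 11.47, 11.23, 11.78, 11.63 and 11.40 on set 1421812_at in C57Bl/6, 11.51, 11.23, 11.51, 11.07 and 11.01 in B6C3F1, and 11.05, 11.08, 11.15, 10.77 and 11.33 in C3H. The C3H arrays were lower with one array inside the C57Bl/6 range, and the difference was -0.42 ± 0.13 (adjusted p = 0.0324). The call was lost when C3H replicate 2 or 4 or C57Bl/6 replicate 1, 3 or 4 was dropped (adjusted p = 0.0537 to 0.104), on median-centred arrays (0.166), with the poly-A signal in the model (0.146) or with eBayes without a trend (0.0779). Its dimmer set, 1450378_at, had means of 7.39 ± 0.40 in C57Bl/6, 7.05 ± 0.17 in B6C3F1 and 7.29 ± 0.16 in C3H and did not pass (-0.10 ± 0.20, adjusted p = 0.810).

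The immunoproteasome gene Psmb8 gave 8.91, 8.50, 9.17, 9.27 and 9.41 in C57Bl/6, 8.68, 8.88, 9.07, 8.87 and 9.22 in B6C3F1, and 8.36, 8.84, 8.13, 8.0 and 8.83 in C3H on set 1422962_a_at. C3H was lower by 0.62 on average with overlapping ranges (difference -0.62 ± 0.19, adjusted p = 0.0328). This call was lost when C3H replicate 1, 3 or 4 or C57Bl/6 replicate 3, 4 or 5 was dropped (adjusted p = 0.0541 to 0.10), on median-centred arrays (0.0941), with the poly-A signal in the model (0.205), without a trend (0.065) or with only the parental arrays in the fit (0.0627). Its other set, 1444619_x_at, was near the filter level, from 4.16 to 6.91 in C57Bl/6 and from 5.80 to 6.53 in C3H, and did not pass (0.76 ± 0.49, adjusted p = 0.365). Psmb9, the other interferon-induced subunit measured, read 8.42, 8.66, 9.24, 8.62 and 9.10 in C57Bl/6, 8.82, 8.22, 8.98, 8.63 and 8.77 in B6C3F1, and 8.31, 8.49, 8.41, 8.36 and 9.26 in C3H on set 1450696_at. The groups overlapped, C3H replicate 5 was again the highest C3H array, and the difference was -0.24 ± 0.20 (adjusted p = 0.485). It was -0.42 without that array (adjusted p = 0.142) and ran from -0.42 to -0.14 with each array left out. For Tap1, Tap2, Tapbp, Psmb8 and Psmb9 too, probe match to either strain and the amount of transcript cannot be told apart.

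**Figure D2:**
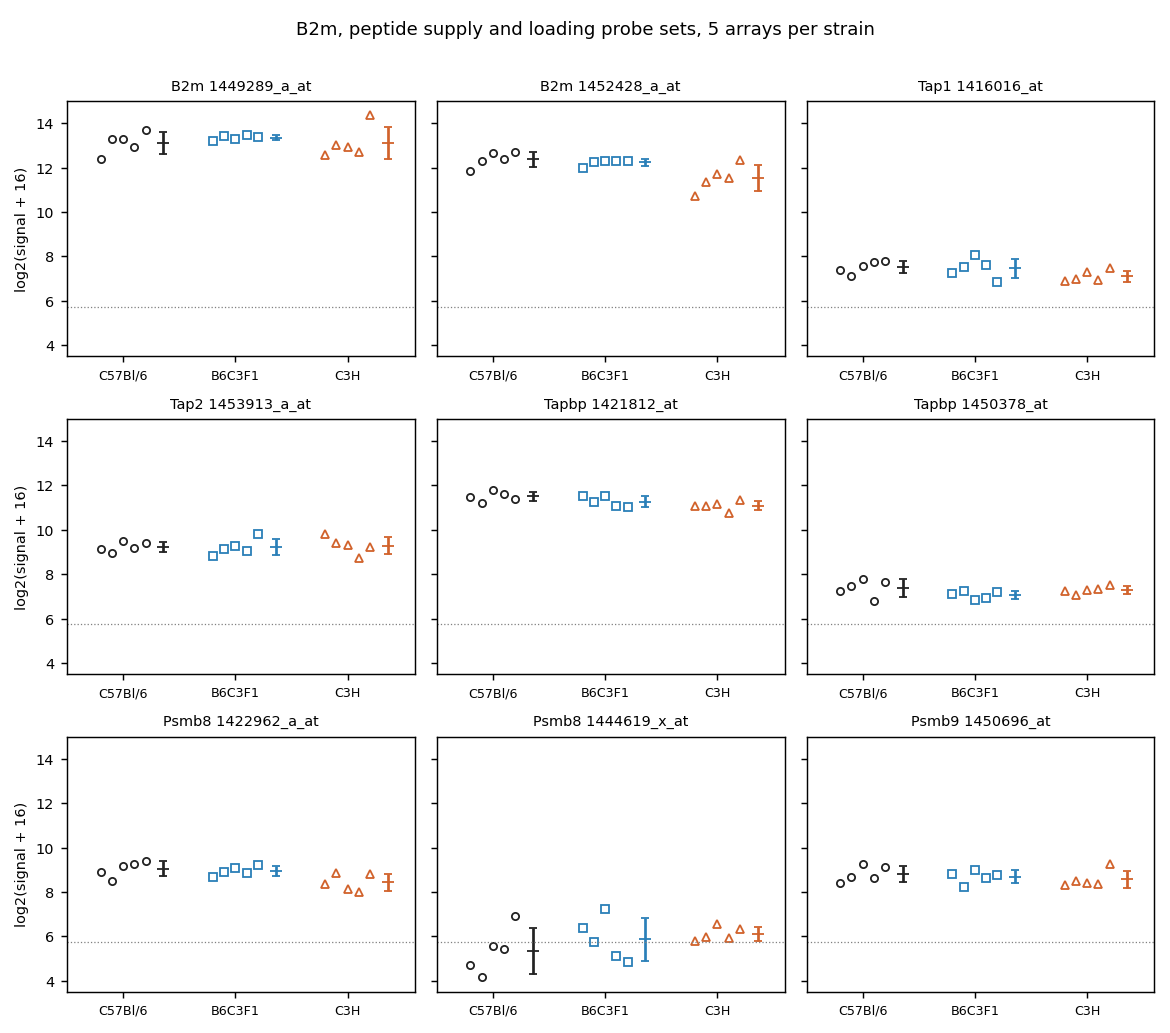
Signals of the 9 tested probe sets of B2m, Tap1, Tap2, Tapbp, Psmb8 and Psmb9, 1 panel per set. The vertical axis is log2(signal + 16), the points are single arrays (5 per strain), the bars are means ± SD and the dotted line is the filter level of 5.74. No panel shows separate groups, and C3H replicate 5 (the last triangle) stands at 14.37 on B2m set 1449289_a_at.

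The second question was where the cross stood. Against C57Bl/6, 9 of the 20 sets passed in B6C3F1, 3 higher and 6 lower (all sets: 2.99% passed, 1.58% higher and 1.41% lower). The 3 higher ones were those higher in C3H, again with 2 of them under the filter level in C57Bl/6. Against C3H, 7 passed, 6 higher and 1 lower (all sets: 4.92%, 2.90% and 2.02%). All of these were heavy chain sets, and by limma 0 of the 9 sets of the other members passed in either comparison (at an unadjusted p under 0.05, 0 against C57Bl/6 and 2 against C3H, both higher). The cross was separate from C57Bl/6 on every array in 8 sets (5.33% of all sets) and from C3H in 6 (5.59%). In each of the 13 sets that passed between the parents, the B6C3F1 mean lay between the parental means, and 6 of them passed against both parents. The 13 were chosen for a difference between the parents, and the share of all such sets was not counted. Neither count is therefore a result about the members. The comparisons of the cross share arrays, so their counts are not independent.

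For H2-K1, B6C3F1 differed from C57Bl/6 by -1.57 ± 0.24 on set 1425336_x_at (adjusted p = 0.000667) and by -1.03 ± 0.17 on 1451931_x_at (adjusted p = 0.00112). From C3H the same sets differed by 3.54 and 2.74 (adjusted p = 3.93e-09 and 5.81e-10). The smaller step of 1427746_x_at from C3H, 0.65 ± 0.18 (adjusted p = 0.0436), was lost in 18 of 26 alternatives, at adjusted p-values of 0.0501 to 0.175. These include dropping B6C3F1 replicate 1, 3, 4 or 5, C3H replicate 1, 2, 3 or 4, or C57Bl/6 replicate 1, 3 or 4.

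For H2-D1, set 1450170_x_at, which was dim in C57Bl/6, stood at 10.42 ± 0.18 in the cross (SD, n = 5). It was higher than in C57Bl/6 by 3.89 ± 0.18 (adjusted p = 2.44e-11) and lower than in C3H by 0.92 ± 0.18 (difference -0.92, adjusted p = 0.00424). Sets 1451784_x_at and 1425545_x_at were lower than in C57Bl/6 by 1.64 and 1.25 (differences -1.64 and -1.25, adjusted p = 0.00012 and 0.00339) and higher than in C3H by 4.01 and 3.22 (adjusted p = 1.2e-10 and 6.51e-09). Set 1426324_at differed from C57Bl/6 by -1.38 (adjusted p = 0.00114) and from C3H by 0.69, which did not pass (adjusted p = 0.090) except without C3H replicate 2 (0.0484). Set 1452544_x_at, under the filter level in C57Bl/6, was 1.67 above C57Bl/6 (adjusted p = 0.00298) and 0.68 below C3H (difference -0.68, adjusted p = 0.243). Set 1451683_x_at was 1.51 above C3H (adjusted p = 0.00114).

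The remaining calls of H2-D1 against C57Bl/6 were close to the threshold. Set 1451683_x_at differed by -1.02 (adjusted p = 0.0369) and was lost in 11 of 26 alternatives (0.0583 to 0.107): the replicate block (0.0602), a pseudocount of 1, no filter, no trend, and dropping B6C3F1 replicate 2, 3 or 4 or C57Bl/6 replicate 1, 3, 4 or 5. Set 1427651_x_at differed by 1.45 (adjusted p = 0.0437) and was lost in 12 of 25 (0.0518 to 0.119): no filter, centring, no trend, and dropping B6C3F1 replicate 1, 2, 3 or 5, C3H replicate 2, or C57Bl/6 replicate 1, 2, 3 or 4. B2m set 1452428_a_at differed from C3H by 0.69 ± 0.21 (adjusted p = 0.0636), which passed with the replicate block (0.00446) and without C3H replicate 5 (0.00349) or C57Bl/6 replicate 1 (0.0491).

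**Figure D3:**
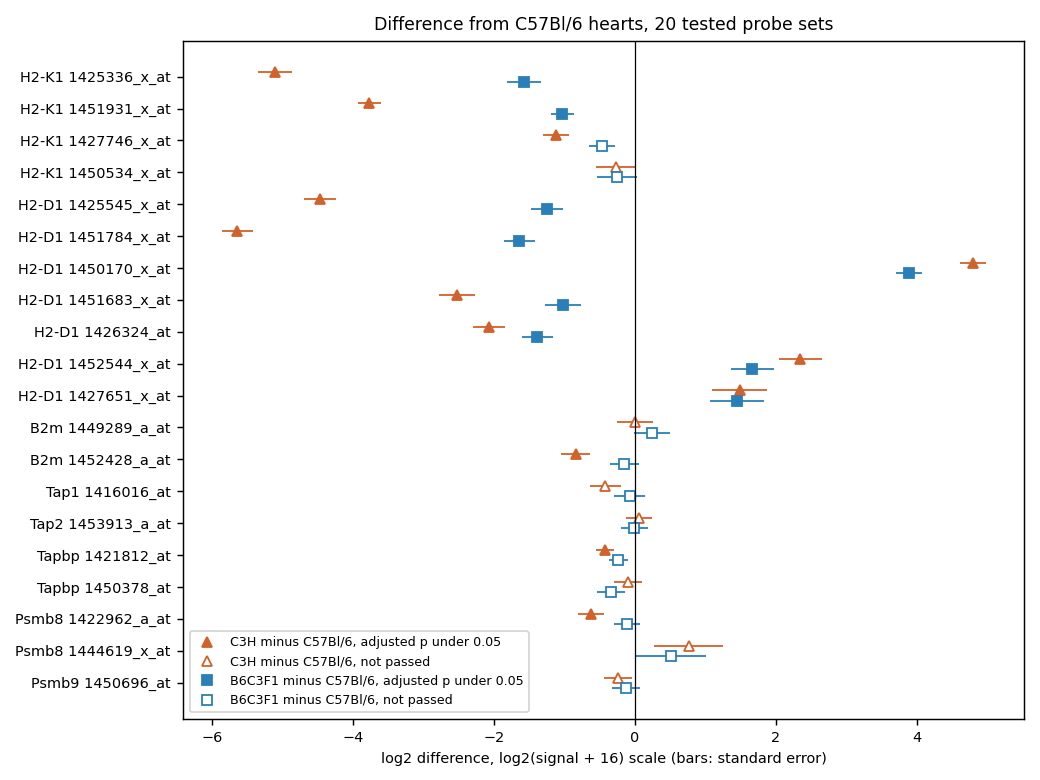
Differences from C57Bl/6 of the 20 tested member probe sets, for C3H (triangles) and B6C3F1 (squares). The horizontal axis is the log2 difference, bars are standard errors, and filled symbols passed at an adjusted p under 0.05. Heavy chain sets spread from -5.65 to 4.80 in C3H, while the sets of the other members lie between -0.84 and 0.76.

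On the log2 scale 5 of the 20 sets passed above the midparent (the average of the C57Bl/6 and C3H log2 means) and 0 passed below it by limma, also at an unadjusted p under 0.05 (all sets: 0.603% passed, 0.403% above and 0.200% below). They were H2-D1 sets 1450170_x_at (1.49 ± 0.16, adjusted p = 1.95e-05), 1451784_x_at (1.18 ± 0.19, adjusted p = 0.00268) and 1425545_x_at (0.99 ± 0.20, adjusted p = 0.0194), and H2-K1 sets 1425336_x_at (0.98 ± 0.21, adjusted p = 0.0312) and 1451931_x_at (0.85 ± 0.15, adjusted p = 0.0046). Set 1425545_x_at was lost in 5 of 25 alternatives (0.0524 to 0.0936), among them dropping B6C3F1 replicate 1, 3 or 4. Set 1425336_x_at was lost in 11 of 25 (0.0517 to 0.128), among them dropping any single B6C3F1 array, C3H replicate 2, 3 or 4, or C57Bl/6 replicate 1. Each of the 5 had parents several-fold apart, where the mean of log2 values lies below the log2 of the mean. On the linear scale, set 1450170_x_at of H2-D1 had a mean B6C3F1 signal of 1.01 times the average of the parental mean signals, with single arrays from 0.83 to 1.16. The 2 other H2-D1 sets stood at 0.637 (1451784_x_at) and 0.805 (1425545_x_at), and the H2-K1 sets at 0.648 (1425336_x_at) and 0.922 (1451931_x_at). On the linear scale 4 of the 5 sets were thus below the parental average, and the direction relative to the midparent depended on the scale. Over the 13 sets that passed between the parents the ratio ran from 0.599 (H2-D1 1426324_at) to 1.46 (H2-D1 1427651_x_at), and it was 1.12 for B2m 1452428_a_at, 0.977 for Tapbp 1421812_at and 1.11 for Psmb8 1422962_a_at. These ratios are descriptions without a test.

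**Figure D4:**
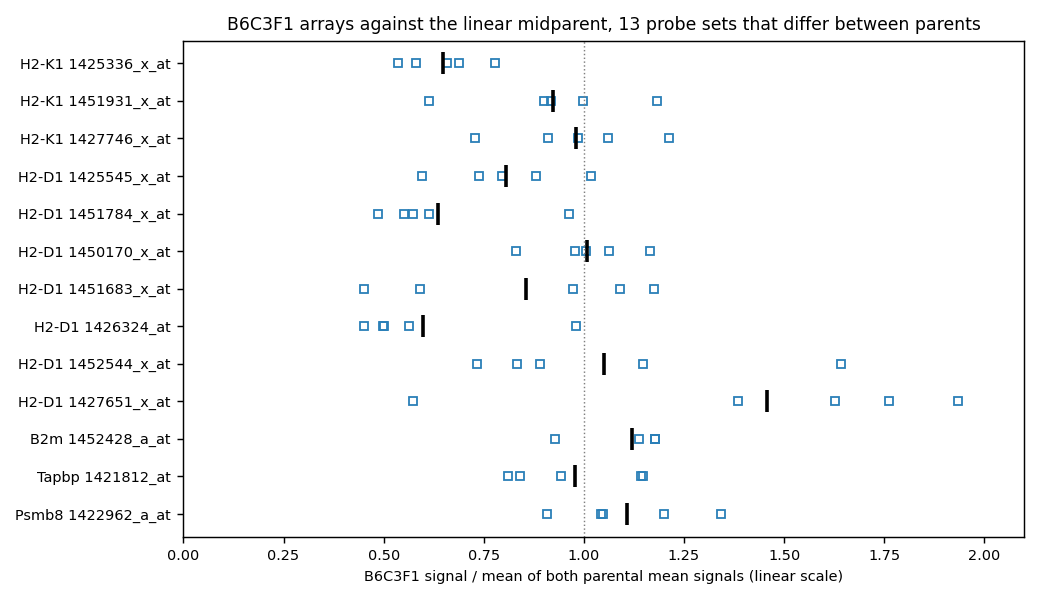
B6C3F1 signals as a ratio to the average of both parental mean signals on the linear scale, for the 13 probe sets that passed between the parents. Squares are the 5 single arrays, black ticks their mean, and the dotted line marks 1, the parental average. On H2-K1 1425336_x_at and H2-D1 1451784_x_at and 1426324_at every B6C3F1 array is below 1, while H2-D1 1450170_x_at is centred at 1.01.

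Other genes of the pathway were grouped in lists, to be read against the 12.7% of all sets that passed between the parents (7.01% lower, 5.70% higher). Of 24 tested sets of 12 partners in peptide supply and loading, 6 were lower and 3 higher in C3H than in C57Bl/6 (37.5%), with a median of -0.29. The lower ones were chaperones of newly made heavy chains: Calr (calreticulin, -0.63, -0.63 and -0.53 on its 3 sets), Canx (calnexin, -0.36 and -0.42) and Pdia3 (an oxidoreductase of the loading complex, -0.93, adjusted p = 0.000968). Psme1, a subunit of the proteasome activator PA28, was higher by 0.48 (adjusted p = 0.00387) and was higher in B6C3F1 than in C57Bl/6 too (0.44, adjusted p = 0.028). The other higher sets, picked out after their values were seen, were of Bcap31 (0.33), an endoplasmic reticulum export factor, and of Npepps (0.39), a cytosolic peptidase. Neither Bcap31 nor Npepps passed on its set of highest mean. Erap1, which trims peptides in the endoplasmic reticulum, differed by -0.10 (adjusted p = 0.734) and Psmb10, the remaining inducible catalytic subunit, by -0.00 (adjusted p = 0.992). Psme2 had no set of its own. Of the constitutive catalytic subunits, Psmb7 was lower (-0.36, adjusted p = 0.0185), while Psmb5 (-0.07) and Psmb6 (-0.04) did not pass.

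Among 12 sets of 9 other class I and class I-like genes, 4 were lower and 1 higher in C3H (41.7%, against 12.7% of all sets). H2-M3, which presents bacterial formyl peptides, was lower (-1.33 ± 0.15, adjusted p = 1.26e-06). Hfe, a regulator of iron uptake, was lower on both of its passing sets (-2.65 and -0.97). Cd1d1, which presents lipids, was lower on 1 set (-0.59, adjusted p = 0.028), and Procr, the endothelial protein C receptor, was higher (1.15, adjusted p = 0.00268). In the cross H2-M3 was below C57Bl/6 (-0.62, adjusted p = 0.0229) and above C3H (0.71, adjusted p = 0.00482). Probe match to either strain and the amount of transcript cannot be told apart for the genes of this list either. No set carried H2-Q1, H2-Q4, H2-Q6, H2-Q7, H2-T10 or H2-T22 as its only symbol.

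Of 32 sets of 19 genes that control class I transcription or interferon signalling, 4 were lower in C3H and 0 higher (1 higher at an unadjusted p under 0.05 by limma), with a median of 0.03. That share, 12.5%, is close to the 12.7% of all sets, so the count is no result about the list. The 4 were of Ifngr1, a chain of the interferon gamma receptor (-0.53, adjusted p = 0.0216), the interferon-induced factor Irf1 (-0.37, adjusted p = 0.0399), and the promoter-binding factors Rfx5 (-0.58, adjusted p = 0.0189) and Rfxank (-0.67, adjusted p = 0.044). Read on the set of highest mean of each gene, 3 genes were lower. Nlrc5, the class I transactivator, read 6.96 ± 0.45 in C57Bl/6, 6.42 ± 0.60 in B6C3F1 and 6.19 ± 0.44 in C3H (SD, n = 5) and did not pass (-0.77 ± 0.31, adjusted p = 0.120).

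The members' neighbours in the H2 region of chromosome 17 were compared as well. Of 126 tested sets of 80 other genes there, 26 were lower and 5 higher in C3H, or 24.6% against 12.7% of all sets, with a median of -0.04. The lowest differences by gene included sets of the class II genes H2-Aa (-2.58), H2-Eb1 (-2.07) and H2-Ab1 (-1.83), which present peptides to CD4 T cells. The others were of the lipid hydrolase gene Abhd16a (-1.88) and of Vps52 (-1.39), a subunit of a vesicle tethering complex. The higher sets were 2 of the collagen receptor gene Ddr1 (1.23 and 0.60) and 1 each of Prrc2a (1.09), the transcription factor gene Pbx2 (0.77) and H2-Ke6 (0.58), a steroid dehydrogenase gene. Read on the set of highest mean of each gene, 14 genes were lower and 3 higher. The range between H2-Aa and Ddr1 was narrower than that of the H2-D1 sets, which ran from -5.65 to 4.80. For these neighbours too, the match of a probe to either haplotype and the amount of transcript cannot be told apart.

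Markers of cells that carry much class I, and of other cells of the apex, were set beside these results. Their counts are to be read against the 12.7% of all sets that passed between the parents. For the cross the shares were 2.99% against C57Bl/6 and 4.92% against C3H. Of 10 sets of general leukocyte markers, 0 passed between the parents (1, lower, at an unadjusted p under 0.05 by limma), and Ptprc, the common leukocyte antigen, differed by -0.45 (adjusted p = 0.148). The mean log2 level of that list per array was 8.36 to 9.04 in C57Bl/6, 8.59 to 8.85 in B6C3F1 and 8.35 to 8.90 in C3H. Of 12 endothelial sets, 3 were lower in C3H, those of Cldn5 (-0.66), Cdh5 (-0.56) and Esam (-0.45), and 0 were higher (2 at an unadjusted p under 0.05 by limma). That list's level was 10.17 to 10.52 in C57Bl/6, 10.01 to 10.47 in B6C3F1 and 9.88 to 10.27 in C3H, with overlapping ranges. Its C3H level was lower in the same direction as Tapbp, Psmb8 and B2m set 1452428_a_at. The part of endothelial cells in those differences was not tested. Of 17 macrophage sets, Cd68 was higher (0.77) and Adgre1 lower (-0.62). That share, 11.8%, is close to that of all sets, so the count is no result about the list. Of 7 T and NK cell, 3 B cell and 5 dendritic cell sets, 0 passed (1 T and NK cell set, lower, at an unadjusted p under 0.05 by limma), and the T cell receptor genes Cd3d, Cd3e and Cd3g and Cd4 were under the dim filter. Fibroblast sets were higher in 3 of 14 cases (Tcf21, 0.76; Lum, 0.57; Dcn, 0.41). The cardiomyocyte list stood at 15.3 to 15.9 on every array, with 1 of 18 sets passing (Myh6 set 1417729_at, 0.93). Myh6 did not pass on its set of highest mean. In the cross, 2 fibroblast sets were higher than in C57Bl/6 (Lum, 0.78; Tcf21, 0.52). Against C3H, 2 macrophage sets were higher in the cross, both of Csf1r (0.50 and 0.51), with 7 of the 17 higher at an unadjusted p under 0.05 by limma. The endothelial sets of Cdh5 (0.70) and Cldn5 (0.58) were higher and 1 set of Eng lower (-0.44) in the cross than in C3H. Eng did not pass on its set of highest mean. The part of these cells in the differences of the cross was not tested.

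Poly-A control RNAs, added during labelling, had a mean log2 signal of 9.41 ± 0.63 on the C3H arrays (SD, n = 5), 8.80 ± 0.56 on the C57Bl/6 arrays and 8.80 ± 0.13 on the B6C3F1 arrays, with C3H replicate 4 highest at 10.52. With that signal as a covariate 10 of the 13 member calls between the parents held. Over all sets 2623 passed with it, against 3435 without it. The 10 member calls that held were all of heavy chain sets, and those lost were of B2m, Tapbp and Psmb8. The Gapdh 3 prime over 5 prime ratio was 0.85 ± 0.24 in C57Bl/6, 0.60 ± 0.26 in C3H and 0.90 ± 0.21 in B6C3F1 on the log2 scale. C3H replicate 5 was the highest C3H array on 10 of the 20 tested member sets, and C57Bl/6 replicate 5 was likewise highest of its group on 10. C57Bl/6 replicate 2 was the lowest of its group on 12, and B6C3F1 replicate 3 the highest on 8. Without C3H replicate 5, 13 sets passed between the parents.

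Array profiles most like those of the members were ranked by the root mean square difference of values centred on their 15-array mean. For H2-D1 set 1425545_x_at, whose own SD over the arrays was 1.99, the closest were Efhd2 (0.297), Gm26782 (0.389) and Lin7c (0.444). For H2-K1 set 1425336_x_at (SD 2.26) they were Pdxdc1 (0.484), Tnni3k (0.574) and Efhd2 (0.590). For Psmb8 (SD 0.41) they were Igfbp4 (0.160), Dpp3 (0.186) and Adgre1 (0.195), and for Tapbp (SD 0.27) Twsg1 (0.149), Copa (0.158) and Tspan31 (0.161). Arrays of one strain are not independent in this measure, and it carries no p-value.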

How the data were processed

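Heart apex RNA of 15 mice (3 groups of 5, grouped by the strain label) was measured on Affymetrix mouse arrays. Per the submitters' processing notes, the authors used MAS5 (version not given in the sources used here). The deposited values are on a log2 scale. Neither the log2 step nor the scaling is stated, and both were read from the values: the 2% trimmed mean signal was about 500.26 on the linear scale of the arrays, and no arrays were identical. Arrays give no depth, so their number limits the precision.

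The analysis used log2(signal + 16), which understates the change of low signals. Probe sets with a mean below the 40th percentile (5.74) were left out. The 27019 others were fitted with limma 3.58.1 in R 4.3.3 (lmFit, eBayes with a trend, all arrays in one fit, Benjamini-Hochberg adjustment), which was tested on simulated data. A set passed at an adjusted p under 0.05. Symbols came from GEO's platform annotation (34940 sets with 1 symbol, 932 with several, 9160 with none, 64 controls). Pairs of sets were compared by exact permutation. Promoter windows were RefSeq's.

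The rule named every member set, up to 4 passing genes of each list with the largest difference between the parents, 5 each way in the H2 region, 14 fixed pathway genes and the 3 nearest profiles. Members and lists were chosen with earlier results of these data known. Alternatives covered the pseudocount (1, 64), the filter (none, 60th percentile), quantile normalization, centring, the trend, covariates, the replicate block, only the compared groups and each array left out. Replicate numbers were not taken as pairs of mice. Same-numbered arrays deviated together with correlations of -0.06 to 0.11 over 15 pairs, 1 of them over 0.1. Arrays of other numbers gave -0.18 to 0.19 over 60 pairs, 4 of them over 0.1. Such correlations cannot exclude a pairing.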

Additional observations from a re-analysis of the deposited data

Results flagged for a closer look

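Of 75 groups of 5 arrays examined over the 25 member probe sets, 7 held an array far from the other 4 by Dixon's ratio, where chance gives about 1 in 20. C3H replicate 5 was such an array 3 times, always as the highest: 14.37 on B2m 1449289_a_at against 12.57 to 13.02 for the other C3H arrays, 11.89 on H2-D1 1450170_x_at against 11.12 to 11.31, and 9.26 on Psmb9 1450696_at against 8.31 to 8.49. C3H replicate 4 stood apart on H2-D1 1427651_x_at, lowest at 5.50 against 7.14 to 7.70, and on the dim Tap1 set 1449803_x_at, highest at 5.71 against 4.20 to 4.55. In the cross, B6C3F1 replicate 5 was highest on H2-D1 1426324_at at 7.56 against 6.57 to 6.85, and B6C3F1 replicate 1 was lowest on B2m 1452428_a_at at 11.97 against 12.27 to 12.31.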

How the results depend on the processing

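Over the alternatives, 80 comparisons of single member sets gave 2044 values, of which 1902 kept direction and side of the threshold, 77 lost the call, 4 gained one and 61 changed sign. The sign changes fell in 17 comparisons that passed in neither setting. The calls of 9 sets for C3H minus C57Bl/6, 7 for B6C3F1 minus C57Bl/6, 6 for B6C3F1 minus C3H and 3 for B6C3F1 minus midparent held in every alternative run (the 60th percentile filter removed H2-D1 1452544_x_at, one of the first 9 and of the 7, and left 11 and 7 member sets passing against 13 and 9), and the count of differing pairs stayed at 26 or 27 of 30. With the replicate block, 13, 8, 8 and 5 member sets passed in these comparisons. Member counts for B6C3F1 minus midparent were 3 to 5 with each array left out, 3 without a trend and 3 with the poly-A covariate. Over all sets that comparison gave 96 to 383 with each array left out, 101 without a trend and 104 with the covariate, against 163. For B6C3F1 minus C57Bl/6 all sets gave 463 to 1407 with each array left out and 468 without a trend, against 807, and for B6C3F1 minus C3H the covariate gave 710 against 1330. Centring moved the median of all sets between the parents from -0.03 to 0.08. Small member differences changed sign, and the cause was not tested. With quantile normalization these were B2m 1449289_a_at for C3H minus C57Bl/6 (-0.042), Tap2 for B6C3F1 minus C57Bl/6 (0.0051) and H2-K1 1450534_x_at for B6C3F1 minus C3H (-0.076). With centring they were Tapbp 1450378_at between the parents (0.0048), Tap2 for B6C3F1 minus C57Bl/6 (0.028) and H2-K1 1450534_x_at for B6C3F1 minus C3H (-0.064). With the Gapdh covariate they were B2m 1449289_a_at (-0.15) and Tap2 (-0.13) between the parents, Tap2 for B6C3F1 minus C57Bl/6 (0.027), H2-D1 1427651_x_at (0.50), Psmb8 1444619_x_at (0.035), H2-K1 1450534_x_at (-0.20) and Tap2 (0.16) for B6C3F1 minus C3H, and Tapbp 1421812_at (0.011), Psmb9 (0.081) and Tap2 (0.093) for B6C3F1 minus midparent. With the poly-A covariate they were B2m 1449289_a_at (-0.087) and Psmb9 (-0.021) for B6C3F1 minus C3H and Psmb8 1444619_x_at for B6C3F1 minus midparent (-0.093). With each array left out, C3H minus C57Bl/6 ran from -0.31 to 0.14 for B2m 1449289_a_at, from -0.25 to 0.0015 for Tapbp 1450378_at and from -0.071 to 0.20 for Tap2 1453913_a_at. B6C3F1 minus C57Bl/6 ran from -0.22 to 0.080 for Tap1 1416016_at and from -0.16 to 0.091 for Tap2. B6C3F1 minus C3H ran from -0.41 to 0.22 for H2-D1 1427651_x_at, from -0.59 to 0.0078 for Psmb8 1444619_x_at, from -0.13 to 0.16 for H2-K1 1450534_x_at and from -0.21 to 0.064 for Tap2. B6C3F1 minus midparent ran from -0.011 to 0.29 for Tap1, from -0.083 to 0.042 for Tapbp 1421812_at, from -0.21 to 0.39 for Psmb8 1444619_x_at, from -0.26 to 0.031 for H2-K1 1450534_x_at, from -0.079 to 0.11 for Psmb9 and from -0.18 to 0.064 for Tap2.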
